A study of Mus musculus with 12 samples.

Results

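Solute carriers are membrane proteins that move small molecules across the cell surface and the membranes of organelles. The 163 entries described here are the solute carrier rows of a mouse liver RNA-seq table, of 283 such rows and 19852 rows in all. They were chosen by their measured level: a symbol of the solute carrier nomenclature and at least 0.5 RPKM (reads per kilobase of transcript, scaled to the mapped reads of the library) in at least 3 of 12 libraries. Of the 283 rows, 168 passed and 115 did not, and 5 of those that passed (Slc10a1, Slc22a7, Slc40a1, Slc1a2 and Slc2a2) were left out by name. Because the level set the membership, a high level in some library is no finding. Just inside the rule, by the third highest library, were Slc12a6and2410042D21Rik at 0.509 RPKM, Slc13a2 at 0.514 and Slc6a8 at 0.542. Just outside were Slc39a6 at 0.497, Slc37a1 at 0.475 and Slc26a2 at 0.470. Among the members, 14 would fail the rule without the libraries of 1 group, and for 9 of these 14 that group is female ARE-Del. Of the 163, 159 belong to solute carrier families, and 4 only carry a carrier's name (Slc4a1ap, Slc7a6os, Slc9a3r1 and Slc9a3r2). In 6 entries the table joins a carrier with a neighbouring gene, so their reads cannot be told apart.

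The mice were of strain C57BL/6 and 20 weeks old, and whole frozen liver was used. ARE-Del mice lack the AU-rich element near the 3′ end of the transcript of Ifng, the interferon gamma gene, and WT mice are littermates that carry it intact. Such elements normally shorten the life of a transcript, and the deletion is a model of lasting interferon gamma. The deletion is in the germ line, so it is not limited to a cell type. There were 3 libraries each of female WT, female ARE-Del, male WT and male ARE-Del. The labels do not say whether each library is a separate animal, so p-values measure the spread between these samples, which may be technical.

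Hepatocytes take up bile acids, drugs, amino acids, sugars and fatty acids from the blood through solute carriers of the plasma membrane. A large family, SLC25, sits mostly in the inner mitochondrial membrane and links the cytosol to the urea cycle, fatty acid oxidation and ATP synthesis. Macrophages and other leukocytes carry their own set, which moves metals, peptides and nucleosides out of phagosomes and lysosomes. Genes that respond to interferon gamma often carry short DNA motifs of the GAS type.

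The summed RPKM of the libraries ran from 173480 to 208650, and the number of reads is not given. The values of low genes fall on steps of whole reads, and the steps put the depth of the WT libraries at 62.5% to 93.6% of the deepest library and that of the ARE-Del libraries at 78.2% to 100%. Depth thus moved in part with genotype, and its part in the results was not tested. Ifng was at 0 to 0.0382 RPKM in the 6 WT libraries and at 0.0742 to 0.238 in the 6 ARE-Del libraries. Albumin and the other 6 hepatocyte markers summed to 21387 RPKM or more in every library. The library labelled female ARE-Del 2 goes against its sex label in part: Xist stood at 0.0456 RPKM there and at 32.95 to 45.6 in the other 5 female libraries, while Ddx3y was at 0 in all 6. Most counts of members called in the values as deposited that rest on it are given with and without it. Counts under other scalings, at an unadjusted p or among members picked by the level rule are given only with it. So are marker and other gene counts.

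Levels spanned almost 3 orders of magnitude, from a mean of 0.285 RPKM for the lowest member to 253 for the highest. The median member had a mean of 2.99 RPKM. Only 4 members had a mean of 100 RPKM or more, 33 had 10 to 100, 91 had 1 to 10 and 35 were below 1. The 5 highest members held 40.2% of the members' summed RPKM, and all members together 0.941% to 1.09% of each library's sum.

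**Figure D1:**
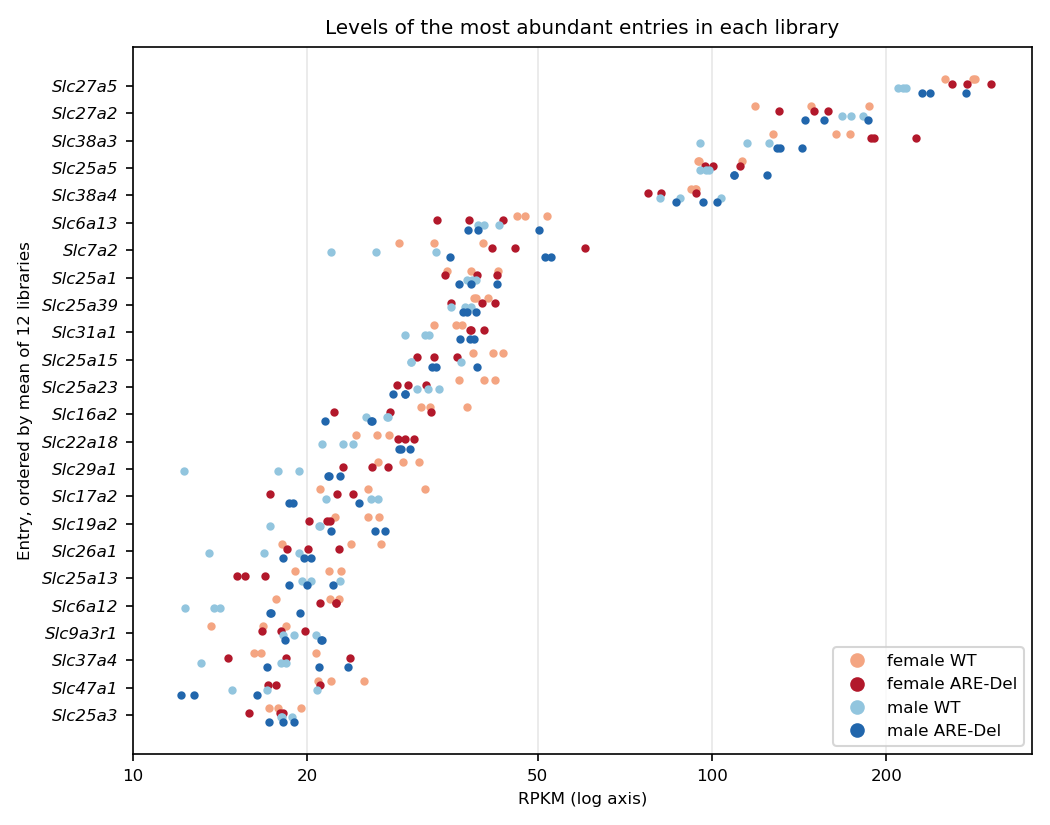
RPKM (log axis) in each of the 12 libraries for 24 of the 25 entries with the highest mean, ordered by that mean; each point is 1 library, coloured by group. Slc27a5, Slc27a2, Slc38a3 and Slc25a5 have means above 100 RPKM, and Slc9a3r1 in this plot is a scaffold protein, not a carrier.

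Slc27a5, the bile acyl-CoA synthetase of the fatty acid transport protein family, led at 209.7 to 304 RPKM over the 12 libraries. Its lowest library was above the highest library of Slc27a2, a very long chain acyl-CoA synthetase at 119 to 187 RPKM. Slc38a3, the main glutamine carrier of the hepatocyte, overlapped Slc27a2 at 95.3 to 225 RPKM. Slc25a5, an ADP/ATP exchanger, at 94.7 to 124 RPKM, overlapped Slc38a3 and also the amino acid carrier Slc38a4 at 77.4 to 103, so the ranges of these 3 overlapped. Roles were set by the family number in the symbol. The peroxisomal Slc25a17 thus counts as a mitochondrial carrier and the mitochondrial Slc24a6 as an ion exchanger. By role, carriers of vitamins, choline, fatty acids and acyl-CoA held 25.6% of the members' summed RPKM, mitochondrial carriers 22.6% and amino acid and peptide carriers 21.2%. Metal carriers held 7.49% and sugar carriers 2.14%.

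The first comparison asked which members differ between ARE-Del and WT within each sex. In females 43 members were higher and 21 lower in ARE-Del, by limma on log2(RPKM + 1) with p-values adjusted over all 10568 rows fitted (Benjamini-Hochberg, threshold 0.05). Of all fitted rows, 25.8% were higher and 5.53% lower, beside 26.4% and 12.9% of the members. The members' share of rises was near the background, and their share of falls was above it. In males 34 members were higher and 8 lower, 20.9% and 4.91%, against 19.5% and 2.04% of all fitted rows. The members' median log2 change was 0.05 in females and 0.11 in males, against 0.09 and 0.10 over all rows. No change called in 1 sex was called the opposite way in the other. Both sexes shared 22 higher members, 13.5% against 15.3% of all rows, and 6 lower members, 3.68% against 1.23% of all rows. Without the library labelled female ARE-Del 2, the shared members were 22 higher and 5 lower.

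The split between higher and lower depends on the scaling of the libraries. Median-of-ratios scaling gave 35 higher and 32 lower in females and 22 higher and 22 lower in males, and quantile normalization 25 higher and 46 lower and 15 higher and 29 lower. Members called in both sexes were 19 higher and 16 lower under the first and 10 higher and 22 lower under the second. Quantile normalization moved the median change of all rows by -0.16 in females and -0.14 in males. In females it left a median of -0.1 for the members and -0.07 for all rows, and median-of-ratios scaling -0.03 and 0.01. The shares of all rows called under these scalings are not given here, so these counts are not read as a trait of the members. Of the 43 members higher in females, 24 kept the call under both of these scalings and with any 1 library left out, as did 12 of the 21 lower. Of the 34 members higher in males, 13 kept it and 4 of the 8 lower did. Without the library labelled male WT 1, 25 members were called in males. Leaving the library labelled female ARE-Del 2 out of the fit gave counts in females of 42 higher and 14 lower. Among the 149 members that pass the rule without any 1 group, 35 were higher and 18 lower in females, and 31 and 5 in males.

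**Figure D2:**
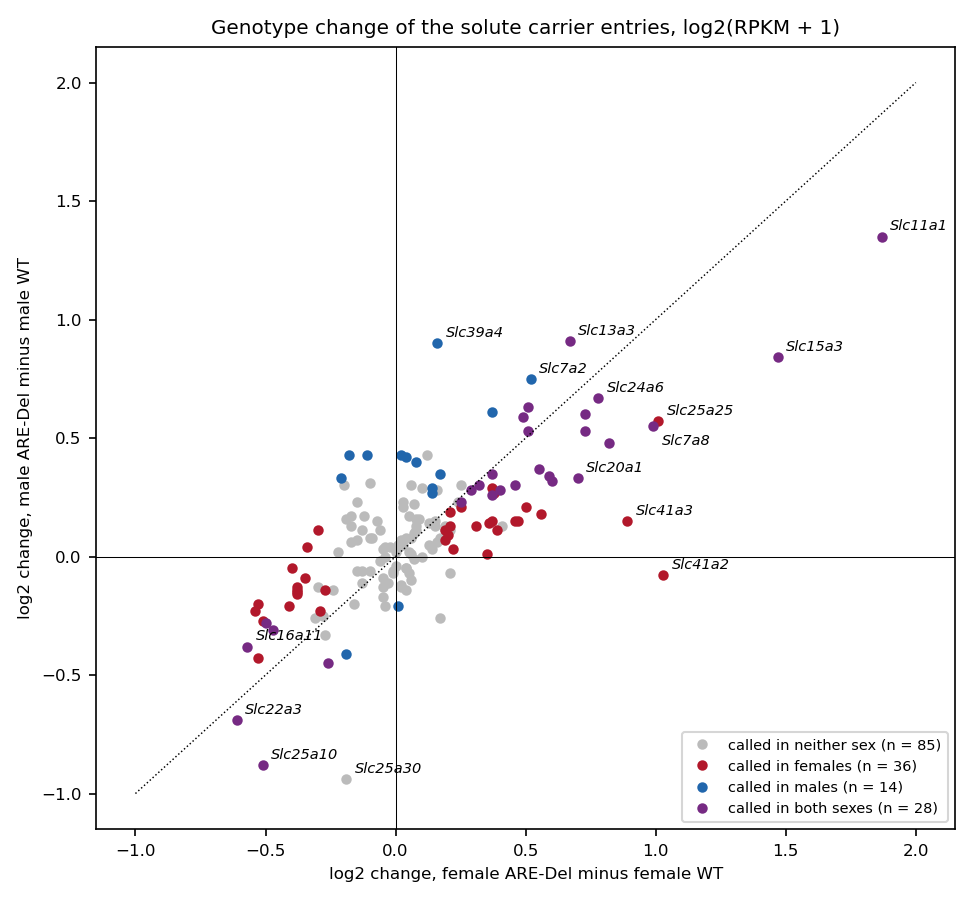
Change of each of the 163 entries on the log2(RPKM + 1) scale, females on the x axis and males on the y axis; colours show in which sex the change passed the test and the dotted line marks equal change. Slc11a1 lies farthest to the upper right at 1.87 and 1.35, and Slc41a2 and Slc41a3 lie far to the right with a male change near 0.

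Of 24 amino acid and peptide carriers, 9 were higher in ARE-Del in females and 9 in males, with 2 and 1 lower. The share higher, 37.5% in each sex, stands beside 25.8% of all rows in females and 19.5% in males. The shares lower were 8.33% and 4.17%, against 5.53% and 2.04%. Quantile normalization gave 6 higher and 4 lower in females and 5 higher and 3 lower in males. The female counts were 8 higher and 1 lower without the library labelled female ARE-Del 2. Slc15a3 is a peptide and histidine carrier of lysosomes. It stood at 1.35, 0.874 and 1.42 RPKM in female WT and at 4.75, 4.81 and 5.69 in female ARE-Del. In males it stood at 0.380, 0.979 and 0.783 RPKM in WT and 2.32, 1.63 and 2.20 in ARE-Del. In neither sex did the groups overlap. The log2 change was 1.47 ± 0.14 (SE) in females (adjusted p = 6.56e-06) and 0.84 ± 0.14 in males (adjusted p = 0.00113).

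Slc7a8, a light chain that exchanges large neutral amino acids, was at 1.30, 0.714 and 1.16 RPKM in female WT and 2.94, 2.79 and 3.47 in female ARE-Del, a log2 change of 0.99 ± 0.11 (adjusted p = 3.02e-05). In males it went from 0.491, 0.671 and 0.690 to 1.62, 1.11 and 1.38 RPKM, a log2 change of 0.55 ± 0.11 (adjusted p = 0.00493). Neither sex showed overlap between genotypes. The related uniporters of neutral amino acids Slc43a1 and Slc43a2 also rose in both sexes. Slc43a2 rose by 0.73 in females and 0.53 in males on the log2 scale (adjusted p = 9.00e-04 and 0.0126), and the male call was lost without male WT 1 or male ARE-Del 1 (adjusted p up to 0.0572). Slc43a1 rose by 0.51 and 0.63 (adjusted p = 0.00727 and 0.00341), and its female call was lost under quantile normalization (adjusted p = 0.0817). Slc43a3, known as a purine base carrier and grouped here with its family, rose in males by 0.61 ± 0.13 (adjusted p = 0.00660).

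Slc7a2 carries arginine and other cationic amino acids and is one of the 10 highest members. Its male WT libraries stood at 21.96, 26.3 and 33.4 RPKM and its male ARE-Del libraries at 35.3, 51.4 and 52.6, without overlap and with a log2 change of 0.75 ± 0.20 (adjusted p = 0.0180). That call was lost without male WT 1, male ARE-Del 2 or male ARE-Del 3 (adjusted p up to 0.0840) and under median-of-ratios scaling (adjusted p = 0.0660) and quantile normalization (adjusted p = 0.0569). In females the change was 0.52 ± 0.20 and missed the threshold (adjusted p = 0.0637). The glycine carrier Slc6a9 fell in females, from 2.48, 2.48 and 3.17 RPKM in WT to 1.70, 1.48 and 1.59 in ARE-Del (log2 change -0.51 ± 0.10, adjusted p = 0.00156). Its male change was -0.27 ± 0.10 (adjusted p = 0.0704). Slc6a16, an orphan of the neurotransmitter carrier family, fell in males from 0.594, 0.730 and 0.564 to 0.172, 0.146 and 0.370 RPKM (log2 change -0.41 ± 0.08, adjusted p = 0.00388). It would fail the level rule without male WT, so a difference from that group is partly built in.

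Metal carriers were higher in ARE-Del in 8 of 24 in females and 5 in males, and 1 was lower in females. The shares higher, 33.3% and 20.8%, stand beside 25.8% and 19.5% of all rows, so the male share is near the background. Quantile normalization gave 6 higher and 5 lower in females and 2 higher and 0 lower in males, and the female counts were 8 higher and 0 lower without the library labelled female ARE-Del 2. The member with the largest rise of all 163, in both sexes, was Slc11a1, the gene of a divalent metal carrier of the phagosome membrane. Female WT libraries stood at 1.69, 1.09 and 2.08 RPKM and female ARE-Del libraries at 7.83, 8.82 and 8.84, 5.24 times the WT mean. In males the values were 0.785, 1.38 and 0.831 RPKM in WT and 4.31, 3.52 and 4.39 in ARE-Del, 4.08 times the WT mean. The lowest ARE-Del library of either sex exceeded all 6 WT libraries. The log2 changes were 1.87 ± 0.14 (adjusted p = 1.17e-06) and 1.35 ± 0.14 (adjusted p = 4.50e-05).

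Of the zinc importers, Slc39a4 rose in males from 7.52, 10.1 and 7.57 RPKM to 13.7, 17.99 and 17.8 (log2 change 0.90 ± 0.16, adjusted p = 0.00203). In females its groups overlapped, at 9.83 to 12.3 RPKM in WT and 9.78 to 15.2 in ARE-Del (adjusted p = 0.4996). Slc39a1 passed in females and missed the threshold in males, with a change of 0.47 ± 0.07 in females (adjusted p = 4.06e-04) and 0.15 ± 0.07 in males (adjusted p = 0.173). The difference between the sexes in these changes passed for neither, with adjusted p of 0.191 for Slc39a4 and 0.223 for Slc39a1. Slc39a14, an importer of zinc, manganese and iron, rose in females by 0.36 ± 0.12 (adjusted p = 0.0442), a call lost in 8 of the 12 settings that left out 1 library (adjusted p up to 0.153) and under median-of-ratios scaling (adjusted p = 0.138) and quantile normalization (adjusted p = 0.143). The manganese exporter Slc30a10 fell in females by 0.38 on the log2 scale (adjusted p = 0.0204), a call lost without female WT 3, female ARE-Del 2 or female ARE-Del 3 (adjusted p up to 0.0842). Slc31a1, the high affinity copper importer, rose in males by 0.27 ± 0.07 (adjusted p = 0.0193), a call lost without male WT 1, male ARE-Del 2 or male ARE-Del 3 (adjusted p up to 0.0906) and under median-of-ratios scaling (adjusted p = 0.0819) and quantile normalization (adjusted p = 0.0752).

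A pair of magnesium carriers of 1 family passed the test in females and missed it in males. Slc41a2 stood at 2.34, 3.42 and 2.16 RPKM in female WT and 4.59, 8.67 and 6.31 in female ARE-Del, while male WT had 7.98, 8.37 and 5.83 and male ARE-Del 8.55, 6.97 and 5.41. Female WT was thus the low group, and the female ARE-Del libraries overlapped both male groups. The log2 change was 1.03 ± 0.21 in females (adjusted p = 0.00238) and -0.08 ± 0.21 in males (adjusted p = 0.821). The difference between these changes was 1.11 ± 0.29 and missed the threshold (adjusted p = 0.117). Slc41a3 stood at 0.907, 1.54 and 1.29 RPKM in female ARE-Del and between 0.0829 and 0.385 in the other 9 libraries. It would fail the level rule without that group, so its female rise is partly built in. Its female change was 0.89 ± 0.10 (adjusted p = 2.02e-05) and its male change 0.15 ± 0.10 (adjusted p = 0.299). The difference between the sexes was 0.74 ± 0.14 (adjusted p = 0.0433), the single member of 163 for which it passed, against 0.568% of all rows. That call held in 3 of the 12 settings that left out 1 library (adjusted p up to 0.130) and was lost under median-of-ratios scaling (adjusted p = 0.0636). At an unadjusted p under 0.05 the same test picked 33 members, 20.2%, beside 11.6% of all rows, and after adjustment 1 passed.

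**Figure D3:**
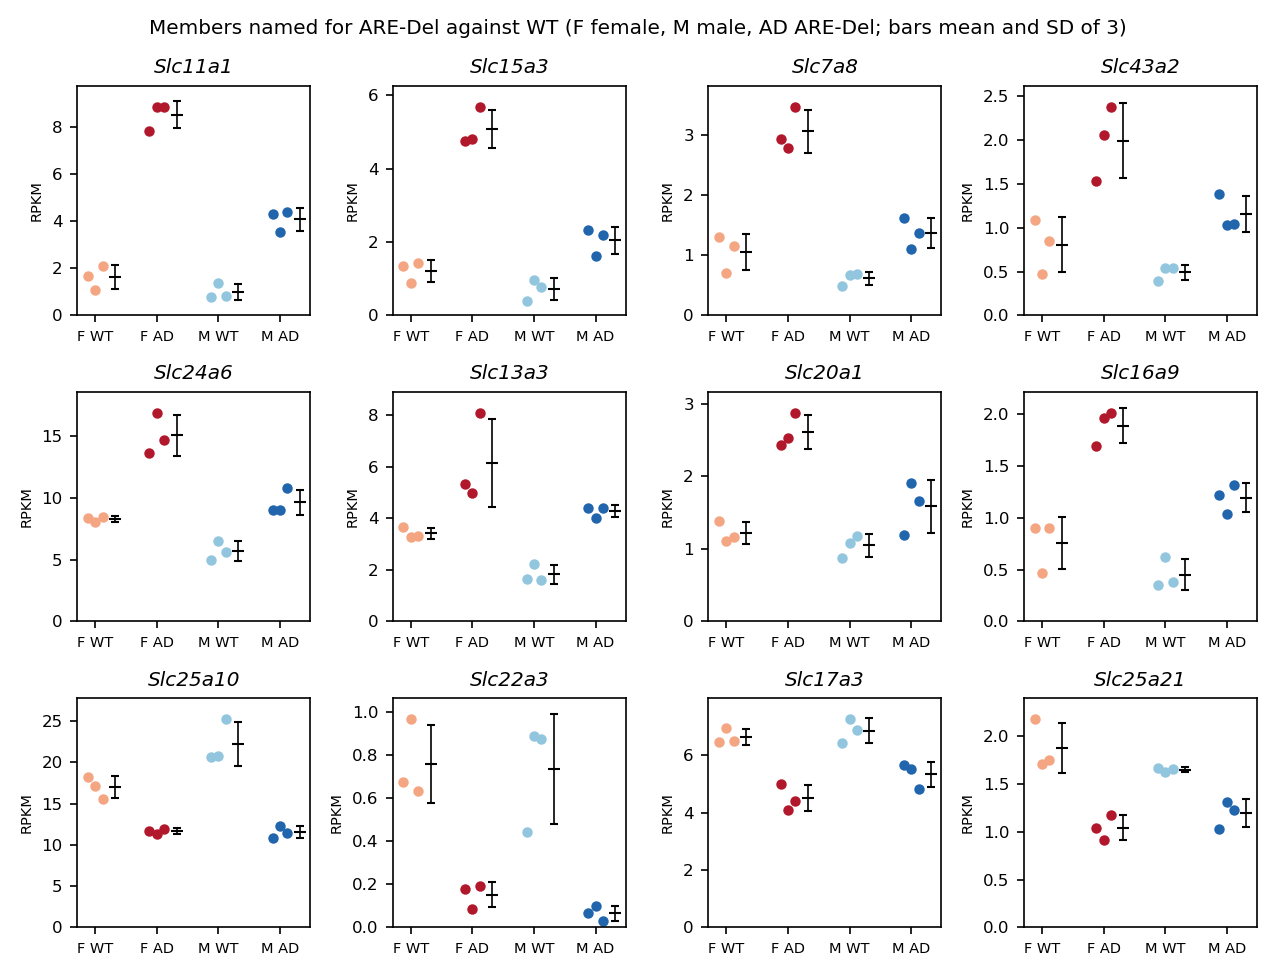
RPKM of 12 members in each library, 3 per group, with the mean and SD beside the points (F female, M male, AD ARE-Del). Slc11a1, Slc15a3, Slc7a8, Slc43a2, Slc24a6, Slc13a3, Slc20a1 and Slc16a9 have a higher mean in ARE-Del of both sexes, and the last 4 panels (Slc25a10, Slc22a3, Slc17a3 and Slc25a21) a lower one.

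Some members belong to a list of carriers known from macrophages and other leukocytes, 1 of which (Slc7a2) is also a hepatocyte carrier. Of 15 such members, 9 were higher in female ARE-Del and 7 in male ARE-Del, and none was lower, with a median log2 change of 0.39 and 0.29. The shares higher were 60.0% and 46.7%, beside 25.8% and 19.5% of all rows. The 9 include Slc37a2 and Slc7a7, which would fail the level rule without female ARE-Del. The list was chosen with earlier results of these data known, so its share is a description and not a test. Under quantile normalization the counts were 8 higher and 2 lower in females and 4 higher and 0 lower in males, and without the library labelled female ARE-Del 2 the female counts were 9 higher and 0 lower. Besides Slc11a1, Slc15a3, Slc43a2 and Slc7a2 the called members include Slc29a3, a lysosomal nucleoside carrier that rose by 0.46 in females and 0.30 in males (adjusted p = 0.00164 and 0.0285). Its male call was lost without male WT 1, male WT 2, male ARE-Del 1, male ARE-Del 2 or male ARE-Del 3 (adjusted p up to 0.117) and under quantile normalization (adjusted p = 0.145). Slc37a2, a sugar phosphate carrier of macrophages, rose in females by 0.39 ± 0.07 (adjusted p = 8.08e-04). It would fail the level rule without the libraries of female ARE-Del, so that rise is partly built in. The same holds for Slc7a7, a light chain for cationic amino acids, at 0.465, 0.223 and 0.423 RPKM in female WT and 0.849, 0.917 and 1.03 in female ARE-Del (log2 change 0.50 ± 0.09, adjusted p = 0.00134). The glucose carrier Slc2a1 rose by 0.51 ± 0.08 in females (adjusted p = 5.44e-04) and 0.53 ± 0.08 in males (adjusted p = 7.85e-04).

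Markers of macrophages and Kupffer cells were also higher in ARE-Del. Of 13 fitted markers, 13 were higher in female and 12 in male ARE-Del, with a median log2 change of 1.97 and 1.71. These are 100% and 92.3%, beside 25.8% and 19.5% of all rows. The 14 markers found in the table, none of them at 0 in any library, summed to 134 to 227 RPKM in female WT and 721 to 843 in female ARE-Del. In males the sums were 93.4 to 156 and 402 to 497. Markers of T and NK cells summed to 0.782 to 1.52, 4.99 to 8.70, 0.822 to 1.13 and 3.30 to 5.13 RPKM in the same order, and 4 of the 4 fitted were higher in females and 3 in males. Some markers of other cell types were higher as well. In females 2 of 3 neutrophil, 1 of 2 B cell, 2 of 4 endothelial, 1 of 4 stellate and 1 of 1 cholangiocyte markers were higher. In males 1 of each of these lists was higher, and no erythroid marker was called in either sex. The part of any of these cell types in the carriers' changes was not tested. In whole tissue, more cells of a type and more RNA per cell cannot be told apart.

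The promoters of a few of these members show what the sequence in front of the gene holds. Of the 163 members, 123 matched a RefSeq gene start of build GRCm38.p6, and the 250 bases before each start were searched on both strands for the GAS-type motif TTCNNNGAA and the ISRE-type motif of TTTC, any 2 bases and TTTC again. The first was in 7 of 123 members, 5.69%, against 8.13% of all genes and 7.02% of all windows of that length. The second was in 2, 1.63%, against 3.46% of genes and 2.98% of windows. The windows of 3 members are shown, with the motif in capitals: Slc11a1, the member with the largest rise, which holds neither, Slc28a2, which holds the first, and Slc25a22, which holds the second on the other strand. A match is a description of letters, and its absence says nothing of a factor.
Slc11a1, chr1:74374953-74375202, plus strand: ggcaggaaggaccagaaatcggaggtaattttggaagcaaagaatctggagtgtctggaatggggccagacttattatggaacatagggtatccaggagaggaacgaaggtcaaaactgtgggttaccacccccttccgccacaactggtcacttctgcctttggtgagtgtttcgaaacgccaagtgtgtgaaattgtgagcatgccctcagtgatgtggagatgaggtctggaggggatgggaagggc
Slc28a2, chr2:122426185-122426434, plus strand: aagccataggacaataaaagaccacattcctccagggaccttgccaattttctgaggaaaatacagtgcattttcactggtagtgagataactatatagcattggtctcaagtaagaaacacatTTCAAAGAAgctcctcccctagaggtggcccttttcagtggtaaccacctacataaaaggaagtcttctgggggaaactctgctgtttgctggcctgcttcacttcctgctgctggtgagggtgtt
Slc25a22, chr7:141435376-141435625, minus strand: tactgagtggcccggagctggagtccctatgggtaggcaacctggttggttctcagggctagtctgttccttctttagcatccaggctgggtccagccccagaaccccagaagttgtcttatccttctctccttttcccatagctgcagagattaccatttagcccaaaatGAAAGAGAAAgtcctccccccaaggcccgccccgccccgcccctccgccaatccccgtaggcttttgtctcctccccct

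Slc28a2, the sodium-driven purine nucleoside carrier, stood at 0.191, 0.113 and 0.218 RPKM in female WT and 0.818, 0.649 and 0.823 in female ARE-Del. In males it stood at 0.0569, 0.124 and 0.136 RPKM in WT and 0.453, 0.299 and 0.453 in ARE-Del, so all 6 ARE-Del libraries exceeded all 6 WT libraries. The log2 changes were 0.59 ± 0.06 (adjusted p = 1.96e-05) and 0.34 ± 0.06 (adjusted p = 0.00250), and the male call was lost under quantile normalization (adjusted p = 0.0505). It would fail the level rule without female ARE-Del, so its female rise is partly built in. Of the 8 carriers of nucleosides and nucleotide sugars, 3 were higher in females and 4 in males and none was lower. Of all rows, 25.8% were higher in females and 19.5% in males. The role's shares were above these in both sexes, but they rest on only 8 members. Both counts include Slc28a2 and are not given without it. Quantile normalization gave 3 higher and 2 lower and 1 higher and 0 lower, and the female counts were 3 higher and 0 lower without the library labelled female ARE-Del 2. The equilibrative nucleoside carrier Slc29a1, at a far higher level, rose in males by 0.43 ± 0.14 (adjusted p = 0.0423), a call lost without female WT 1, female ARE-Del 1, male WT 1, male ARE-Del 1, male ARE-Del 2 or male ARE-Del 3 (adjusted p up to 0.141) and under median-of-ratios scaling (adjusted p = 0.161) and quantile normalization (adjusted p = 0.161).

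Mitochondrial carriers, the largest role, had members lower and higher in ARE-Del. In females 9 of 32 were lower and 5 higher, and in males 2 were lower and 4 higher. The shares lower, 28.1% and 6.25%, stand beside 5.53% and 2.04% of all rows. The shares higher, 15.6% and 12.5%, stand beside 25.8% and 19.5%. Under quantile normalization the counts were 2 higher and 13 lower in females and 1 higher and 9 lower in males, and under median-of-ratios scaling 2 higher and 10 lower and 2 higher and 8 lower. The female counts were 4 higher and 6 lower without the library labelled female ARE-Del 2. Slc25a10, which exchanges dicarboxylates for phosphate, stood at 18.3, 17.2 and 15.6 RPKM in female WT and 11.7, 11.3 and 11.99 in female ARE-Del. The male libraries stood at 20.7, 20.8 and 25.3 RPKM in WT and 10.9, 12.3 and 11.5 in ARE-Del. Each of the 6 ARE-Del values was below the lowest WT value of either sex. The log2 change was -0.51 ± 0.09 in females (adjusted p = 9.27e-04) and -0.88 ± 0.09 in males (adjusted p = 3.46e-05), and both calls held with any 1 library left out.

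Slc25a21, the carrier of oxodicarboxylates such as 2-oxoadipate, fell by 0.50 in females (adjusted p = 3.22e-04) and by 0.28 in males (adjusted p = 0.0230) on the log2 scale. The male call was lost without male WT 1, male WT 3 or male ARE-Del 1 (adjusted p up to 0.0865). Slc25a20, which brings acylcarnitines in for fatty acid oxidation, was at 13.7, 11.6 and 16.98 RPKM in female WT and 9.83, 7.30 and 11.3 in female ARE-Del (log2 change -0.53 ± 0.15, adjusted p = 0.0154). That call was lost without female WT 3 or female ARE-Del 2 (adjusted p up to 0.0648). In males the change was -0.43 ± 0.15 (adjusted p = 0.0545) although the groups did not overlap, at 15.1 to 15.5 RPKM in WT and 10.3 to 12.3 in ARE-Del. Slc25a16, a carrier linked to coenzyme A, fell in females by 0.41 on the log2 scale (adjusted p = 0.00490).

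Other mitochondrial carriers were higher. Slc25a4, an ADP/ATP exchanger known from heart and muscle, stood at 1.48, 1.05 and 1.16 RPKM in female WT and 2.90, 2.51 and 3.41 in female ARE-Del (log2 change 0.82 ± 0.11, adjusted p = 9.45e-05). It rose in males as well, by 0.48 ± 0.11 (adjusted p = 0.00814). Its abundant relative Slc25a5 had a change of 0.03 ± 0.09 in females and 0.23 ± 0.09 in males (adjusted p = 0.826 and 0.102). Slc25a22, a glutamate carrier whose promoter is printed above, rose by 0.49 ± 0.16 (adjusted p = 0.0402) and 0.59 ± 0.16 (adjusted p = 0.0240). Its male call was lost without male WT 1, male WT 3 or male ARE-Del 2 (adjusted p up to 0.0997) and under median-of-ratios scaling (adjusted p = 0.0582) and quantile normalization (adjusted p = 0.0530), and its female call without female WT 1, female WT 2, female ARE-Del 1, female ARE-Del 3 or male WT 3 (adjusted p up to 0.148) and under median-of-ratios scaling (adjusted p = 0.0884). The ATP-magnesium carrier Slc25a25 had a mean change of 1.01 ± 0.34 in females (adjusted p = 0.0421), but its groups overlapped, at 3.23, 6.36 and 3.60 RPKM in WT and 14.96, 9.38 and 6.05 in ARE-Del. That call was lost without female WT 1, female WT 3, female ARE-Del 1, female ARE-Del 2, male WT 1 or male WT 3 (adjusted p up to 0.160) and under median-of-ratios scaling (adjusted p = 0.0782) and quantile normalization (adjusted p = 0.0793).

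**Figure D4:**
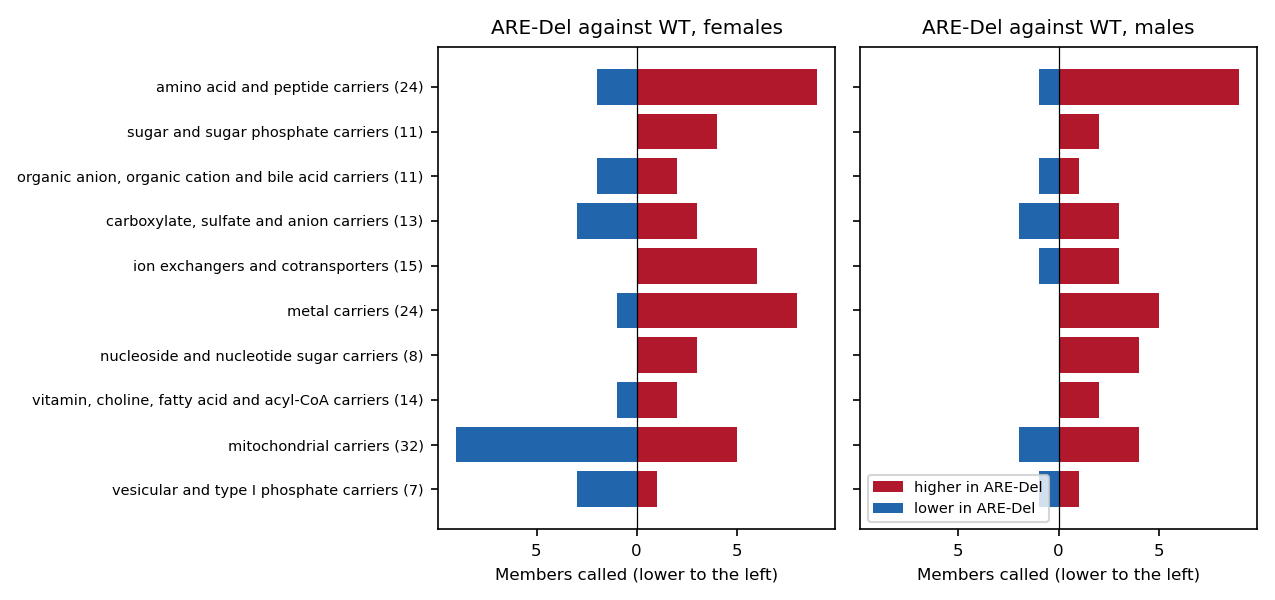
Number of members called higher (right) or lower (left) in ARE-Del by role, females in the left panel and males in the right; the number of members of each role is in brackets. In the values as deposited, amino acid and peptide carriers have 9 members to the right in each sex, and mitochondrial carriers, the role with the most members, have 9 to the left in females and 2 in males.

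Among the carriers of organic ions and bile acids, 2 of 11 were higher and 2 lower in females, and 1 and 1 in males. In females 18.2% were higher and 18.2% lower, against 25.8% and 5.53% of all rows. In males 9.09% were higher and 9.09% lower, against 19.5% and 2.04%. That even split depends on the scaling: quantile normalization gave 0 higher and 4 lower in females and 1 higher and 4 lower in males, and median-of-ratios scaling 2 higher and 3 lower and 0 higher and 3 lower. The female counts were 2 higher and 2 lower without the library labelled female ARE-Del 2. Slc22a3, an organic cation carrier, fell in both sexes, from 0.678, 0.970 and 0.634 to 0.181, 0.0850 and 0.192 RPKM in females and from 0.442, 0.890 and 0.876 to 0.0654, 0.101 and 0.0312 in males. The log2 changes were -0.61 ± 0.10 (adjusted p = 6.06e-04) and -0.69 ± 0.10 (adjusted p = 4.72e-04). At these levels the added 1 RPKM hides part of the change: the ARE-Del mean was 0.201 of the WT mean in females and 0.0895 in males. Slc22a3 would fail the level rule without female WT, so its female fall is partly built in. Slc22a18, an orphan of the family, rose in males by 0.35 ± 0.07 (adjusted p = 0.00460), a call lost under median-of-ratios scaling (adjusted p = 0.0740).

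Of 13 carriers of carboxylates and anions, 3 were higher and 3 lower in females and 3 and 2 in males. These are 23.1% and 23.1% in females, against 25.8% and 5.53% of all rows, and 23.1% and 15.4% in males, against 19.5% and 2.04%. In females the counts were 3 higher and 5 lower under median-of-ratios scaling, 2 higher and 6 lower under quantile normalization and 3 higher and 2 lower without the library labelled female ARE-Del 2. In males each of the scalings gave 3 higher and 2 lower. Slc13a3, the sodium-driven dicarboxylate carrier, stood at 3.65, 3.27 and 3.32 RPKM in female WT and 5.33, 4.98 and 8.09 in female ARE-Del. In males it stood at 1.64, 2.24 and 1.60 RPKM in WT and 4.41, 4.02 and 4.41 in ARE-Del, 2.34 times the WT mean. The log2 changes were 0.67 ± 0.14 (adjusted p = 0.00259) and 0.91 ± 0.14 (adjusted p = 5.88e-04). Slc16a9, a monocarboxylate carrier family member linked to carnitine, also rose in both, by 0.73 and 0.60 (adjusted p = 1.97e-04 and 0.00159). Slc16a11 of the same family fell by 0.57 in females (adjusted p = 8.51e-04) and by 0.38 in males (adjusted p = 0.0188) on the log2 scale. The male call of Slc16a11 was lost without male WT 3, male ARE-Del 1 or male ARE-Del 3 (adjusted p up to 0.0718). Slc16a10, the aromatic amino acid carrier, rose in males by 0.42 ± 0.07 (adjusted p = 0.00129).

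Of 15 ion exchangers and cotransporters 6 were higher and none lower in females, and 3 were higher and 1 lower in males. Of all rows, 25.8% were higher and 5.53% lower in females, and 19.5% and 2.04% in males. The role's share higher was thus above the background in females and, at 20.0%, near it in males. Under quantile normalization the counts were 2 higher and 1 lower in females and 1 higher and 2 lower in males, and without the library labelled female ARE-Del 2 the female counts were 7 higher and 0 lower. Slc24a6, the sodium/calcium exchanger of mitochondria, stood at 8.39, 8.01 and 8.49 RPKM in female WT and 13.6, 16.9 and 14.7 in female ARE-Del. In males the values were 4.94, 6.54 and 5.66 RPKM in WT and 9.06, 9.04 and 10.8 in ARE-Del. The groups were apart in both sexes, with log2 changes of 0.78 ± 0.10 (adjusted p = 8.56e-05) and 0.67 ± 0.10 (adjusted p = 6.61e-04). The phosphate importer Slc20a1, added after its values were seen, rose by 0.70 ± 0.10 in females (adjusted p = 1.79e-04). Its male change was 0.33 ± 0.10 (adjusted p = 0.0353), a call lost without male WT 1, male WT 2, male ARE-Del 2 or male ARE-Del 3 (adjusted p up to 0.142) and under median-of-ratios scaling (adjusted p = 0.0690) and quantile normalization (adjusted p = 0.194).

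In the family of type I phosphate and vesicular carriers, 3 of 7 were lower and 1 higher in females, and 1 and 1 in males. The shares lower were 42.9% and 14.3%, against 5.53% and 2.04% of all rows. The share higher was 14.3% in each sex, against 25.8% and 19.5%. Quantile normalization gave 0 higher and 4 lower in females and 0 higher and 3 lower in males, and the female counts were 1 higher and 2 lower without the library labelled female ARE-Del 2. Slc17a3, a urate carrier of the hepatocyte and kidney membrane, stood at 6.45, 6.94 and 6.49 RPKM in female WT and 4.996, 4.10 and 4.42 in female ARE-Del. The male libraries were at 6.41, 7.27 and 6.88 in WT and 5.66, 5.51 and 4.84 in ARE-Del. The log2 changes were -0.47 ± 0.08 (adjusted p = 5.79e-04) and -0.31 ± 0.08 (adjusted p = 0.0151), and the male call was lost without male WT 2 or male ARE-Del 3 (adjusted p up to 0.0647). Its neighbour Slc17a1, added after its values were seen, fell in females by 0.38 on the log2 scale (adjusted p = 0.00356), and its male change was -0.14 ± 0.08 (adjusted p = 0.249). Slc17a2, the most abundant of the family, had changes of -0.28 ± 0.16 and -0.25 ± 0.16 (adjusted p = 0.219 and 0.312). These 3 genes start on the plus strand of chromosome 13 within a short stretch, and each of their windows holds the GAS-type motif once, in capitals, so they make up 3 of the 7 members with it. The windows are shown because neighbours of 1 family share that motif.
Slc17a2, chr13:23806743-23806992, plus strand: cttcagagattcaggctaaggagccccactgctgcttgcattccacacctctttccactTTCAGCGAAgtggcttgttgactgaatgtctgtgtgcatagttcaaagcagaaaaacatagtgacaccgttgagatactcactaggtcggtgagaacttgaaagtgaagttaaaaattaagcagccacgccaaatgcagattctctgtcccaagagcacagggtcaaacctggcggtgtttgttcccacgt
Slc17a3, chr13:23839184-23839433, plus strand: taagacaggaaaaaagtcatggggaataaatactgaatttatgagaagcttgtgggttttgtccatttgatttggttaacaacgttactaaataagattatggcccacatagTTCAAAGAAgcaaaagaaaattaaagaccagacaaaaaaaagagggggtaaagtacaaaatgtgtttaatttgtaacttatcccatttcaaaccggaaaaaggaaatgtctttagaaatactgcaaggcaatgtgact
Slc17a1, chr13:23870023-23870272, plus strand: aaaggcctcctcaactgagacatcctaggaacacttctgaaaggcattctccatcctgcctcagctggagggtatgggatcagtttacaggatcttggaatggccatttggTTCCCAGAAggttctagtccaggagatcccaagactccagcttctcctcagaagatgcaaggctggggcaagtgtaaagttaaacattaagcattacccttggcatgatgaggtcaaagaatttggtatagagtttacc

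Among the most abundant members, Slc27a5, Slc27a2, Slc25a5 and Slc38a4 passed the test in neither sex. Of 22 members known from the hepatocyte plasma membrane, 5 were higher and 5 lower in females, and 5 and 2 in males. In females 22.7% were higher and 22.7% lower, against 25.8% and 5.53% of all rows. In males 22.7% were higher and 9.09% lower, against 19.5% and 2.04%. Quantile normalization gave 1 higher and 6 lower in females and 1 higher and 4 lower in males, and the female counts were 3 higher and 3 lower without the library labelled female ARE-Del 2. Slc27a5 had a log2 change of 0.03 ± 0.09 in females and 0.21 ± 0.09 in males (adjusted p = 0.823 and 0.129), and Slc27a2 of -0.03 ± 0.15 and -0.11 ± 0.15 (adjusted p = 0.910 and 0.627). Slc38a4 had changes of -0.15 ± 0.10 and 0.07 ± 0.10 (adjusted p = 0.307 and 0.688). Slc38a3 rose in females by 0.38 ± 0.13 (adjusted p = 0.0449), a call lost in 9 of the 12 settings that left out 1 library (adjusted p up to 0.171) and under median-of-ratios scaling (adjusted p = 0.196) and quantile normalization (adjusted p = 0.0703). Slc6a13, which carries GABA and taurine, fell in females by 0.34 on the log2 scale (adjusted p = 0.0445), a call lost in 9 of the 12 settings that left out 1 library (adjusted p up to 0.150). Slc37a4, the glucose 6-phosphate carrier needed for glucose release, had changes of 0.06 ± 0.18 and 0.30 ± 0.18 (adjusted p = 0.826 and 0.259). By limma 0 of 7 hepatocyte markers passed in females (3 at an unadjusted p under 0.05), and 2 were higher and 1 lower in males. Their summed RPKM was 31143 to 33708 in female WT and 37831 to 39402 in female ARE-Del, without overlap. In males it was 22731 to 23346 in WT and 21387 to 29354 in ARE-Del, which overlapped, and each female library was above all male libraries. These sums are mostly albumin, at 26184 to 34499 RPKM in female and 16223 to 24327 in male libraries. By limma 2 of the 7 markers were higher and 1 lower in female than in male WT. In ARE-Del 1 was higher and 1 lower in females. Whether these sums move the carriers' values was not tested.

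The second comparison set females against males within each genotype. In WT 19 members were higher and 8 lower in females, 11.7% and 4.91% of the members against 6.72% and 3.04% of all rows. In ARE-Del 32 were higher and 16 lower, 19.6% and 9.82% against 16.4% and 6.02%. Quantile normalization gave 17 higher and 14 lower in WT and 27 higher and 26 lower in ARE-Del, and median-of-ratios scaling 20 higher and 12 lower and 33 higher and 18 lower. Leaving the library labelled female ARE-Del 2 out gave ARE-Del counts of 35 higher and 12 lower. The WT count fell to 15 members without the library labelled male WT 1. The ARE-Del count fell to 30 once female ARE-Del 3 was left out and to 31 once male ARE-Del 2 was left out. In both genotypes 8 members were higher and 3 lower in females, and 10 and 2 without the library labelled female ARE-Del 2. The share of all rows called in both genotypes is not given here, so these counts are not read as a trait of the members.

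**Figure D5:**
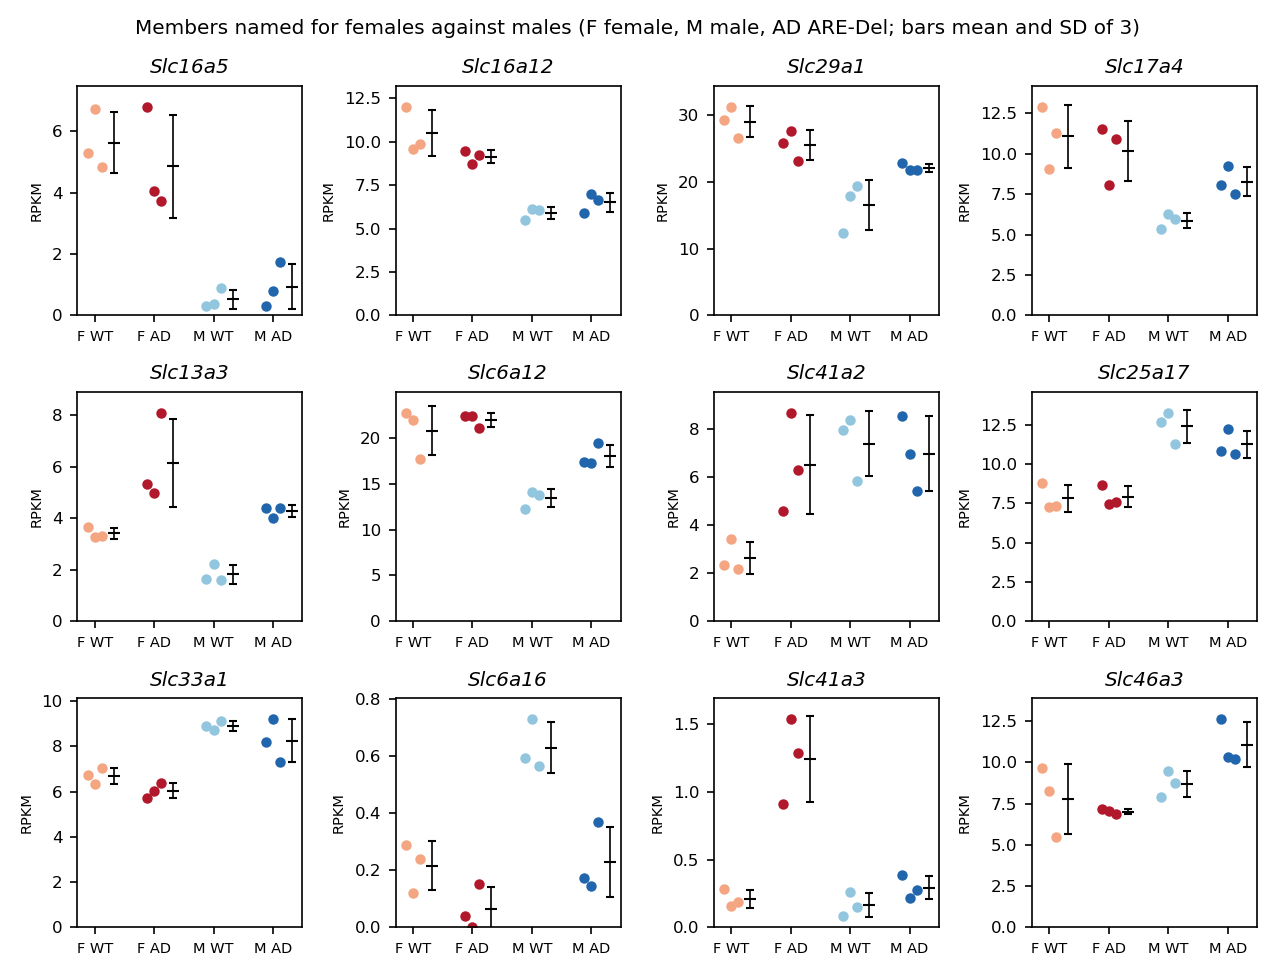
RPKM of 12 members in each library, 3 per group, with the mean and SD beside the points (F female, M male, AD ARE-Del). Slc16a5 is higher in every female library than in any male library, Slc25a17 and Slc33a1 are lower in all of them, and female WT is the low group of Slc41a2.

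Slc16a5, a monocarboxylate carrier family member known for drug transport, had the largest sex difference among the members. It stood at 5.31, 6.75 and 4.85 RPKM in female WT and 0.312, 0.387 and 0.879 in male WT, 10.7 times the male mean. In ARE-Del it stood at 6.80, 4.06 and 3.73 RPKM in females and 0.291, 0.791 and 1.74 in males. The lowest female library was above the highest male library in both genotypes, with log2 differences of 2.13 ± 0.26 (adjusted p = 2.28e-04) and 1.63 ± 0.26 (adjusted p = 9.02e-04). Slc16a12, a creatine carrier, was also higher in females, by 0.73 ± 0.09 in WT (adjusted p = 2.26e-04) and 0.43 ± 0.09 in ARE-Del (adjusted p = 0.00415). So was Slc4a4, a sodium bicarbonate cotransporter, by 0.57 ± 0.09 (adjusted p = 0.00154) and 0.54 ± 0.09 (adjusted p = 0.00112).

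In the other direction, Slc25a17, a peroxisomal carrier of cofactors, stood at 8.81, 7.29 and 7.36 RPKM in female WT and 12.6, 13.2 and 11.3 in male WT. In ARE-Del it was at 8.68, 7.47 and 7.62 RPKM in females and 10.8, 12.2 and 10.7 in males. All female libraries lay below all male libraries, with log2 differences of -0.60 ± 0.09 in WT (adjusted p = 0.00134) and -0.46 ± 0.09 in ARE-Del (adjusted p = 0.00401). Slc33a1, which moves acetyl-CoA into the endoplasmic reticulum, was lower in females as well, with log2 differences of -0.36 ± 0.08 in WT (adjusted p = 0.0114) and -0.39 ± 0.08 in ARE-Del (adjusted p = 0.00383). Slc41a2 was lower in female WT, with a log2 difference of -1.21 ± 0.21 (adjusted p = 0.00312), and in ARE-Del the difference was -0.10 ± 0.21 (adjusted p = 0.767).

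Several members differed by sex in WT with a smaller gap in ARE-Del. Slc29a1 stood at 29.3, 31.2 and 26.5 RPKM in female WT and 12.3, 17.8 and 19.3 in male WT, and at 23.03 to 27.6 and 21.7 to 22.8 in ARE-Del. Its log2 difference was 0.80 ± 0.14 in WT (adjusted p = 0.00288) and 0.19 ± 0.14 in ARE-Del (adjusted p = 0.339). Slc17a4 had 0.81 ± 0.14 (adjusted p = 0.00293) and 0.26 ± 0.14 (adjusted p = 0.203), and the betaine carrier Slc6a12 0.59 ± 0.10 (adjusted p = 0.00212) and 0.27 ± 0.10 (adjusted p = 0.0603). The test of the change in that gap gave adjusted p of 0.199 for Slc29a1, 0.267 for Slc17a4 and 0.383 for Slc6a12, so none was shown to differ between genotypes. In ARE-Del the leukocyte carriers Slc15a3 and Slc11a1 were higher in females, by 1.00 ± 0.14 (adjusted p = 4.66e-04) and 0.91 ± 0.14 (adjusted p = 8.56e-04). The macrophage marker sums given above were also higher in female than in male ARE-Del libraries, and their part in this was not tested. Slc46a3, a lysosomal carrier, was lower in female than in male ARE-Del, with a log2 difference of -0.58 ± 0.15 (adjusted p = 0.0152), a call lost without female ARE-Del 3 or male ARE-Del 1 (adjusted p up to 0.0585).

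Transporters outside the nomenclature were read in the same fit. Of 5 fitted SLCO organic anion transporters, 3 fell in female ARE-Del, and 1 fell and 1 rose in males. Slco1a4 stood at 28.3, 28.98 and 26.2 RPKM in female WT and 12.1, 10.9 and 9.16 in female ARE-Del (log2 change -1.30 ± 0.13, adjusted p = 1.17e-05) and fell in males too (-0.70 ± 0.13, adjusted p = 0.00284). Slco1a1 fell in females by 2.31 (adjusted p = 7.79e-04), and its male change was -0.07 ± 0.40 (adjusted p = 0.917), with an adjusted p of 0.0998 for the difference. Of 13 ABC transporters, 3 were higher in females and 2 in males and none was lower, led by the sterol exporter Abcg1 at 1.23 ± 0.14 (adjusted p = 3.35e-05) and 0.76 ± 0.14 (adjusted p = 0.00252). Of 5 aquaporins and Rh glycoproteins, the ammonium carrier Rhbg alone was called, at 0.66 ± 0.15 (adjusted p = 0.00596) and 1.17 ± 0.15 (adjusted p = 2.11e-04). Of 16 regulators of transporter genes, Stat5b rose by 0.22 and the xenobiotic receptor Nr1i3 fell by 0.54 in females (adjusted p = 0.0316 and 0.0166). In males Hnf4a, a master regulator of hepatocyte genes, rose by 0.44 (adjusted p = 0.0221). Of all rows, 25.8% were higher in females and 19.5% in males. The shares higher were 23.1% and 15.4% of ABC transporters, 20.0% and 20.0% of aquaporins and Rh glycoproteins and 6.25% and 6.25% of regulators. These were near or below the background. Of SLCO transporters 60.0% and 20.0% were lower, against 5.53% and 2.04% of all rows. Calls of these genes are given only for the values as deposited.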

How the data were processed

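RNA-seq of total RNA from mouse liver was deposited by the authors as 1 table of RPKM values for 12 libraries. Per the submitters' processing notes, Trimmomatic 0.30, TopHat2 2.0.8, Partek and GenomeStudio 6.6 were named together with build mm9. No source used here gives the counting rule or strand setting, so paralogs and overlapping genes may share reads. A few results are not reported here. Columns were matched to samples by their labels. The members and gene lists were chosen with earlier results of these data known. All 10568 rows at 0.5 RPKM or more in at least 3 libraries were fitted in R 4.3.3 with limma 3.58.1 (4 group means on log2(RPKM + 1), moderated variance with trend, Benjamini-Hochberg within each of 5 comparisons), and the script was tested on simulated data. A log2 change on this scale understates the change of low genes. The precision rests on 3 libraries per group, since only the relative depth of the libraries could be read from the values. Named genes were the highest members overall and by role, the largest called changes, and members of the lists. Alternatives were other pseudocounts, filters, scalings (median-of-ratios size factors, quantile normalization), a replicate block and each library left out.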

Additional observations from a re-analysis of the deposited data

Results flagged for a closer look

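Slc41a3, a magnesium carrier, had a genotype change in females that exceeded the change in males by 0.74 ± 0.14 on the log2(RPKM + 1) scale (limma's interaction term, adjusted p = 0.0433). It was picked out because this test of the difference between the sexes passed. All 3 female ARE-Del libraries, at 0.907 to 1.54 RPKM, exceeded the other 9. The entry would fail the level rule without female ARE-Del, so its female rise is partly built in, and its values are low. The call was lost in 9 of the 12 settings that left out 1 library (adjusted p up to 0.130).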

How the results depend on the processing

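Over the named members reported here and the 5 comparisons, 7885 of 8270 values under another setting kept their direction and side of the threshold, 289 lost a call, 96 gained one and none of these reversed. The cause was not tested. The count of members whose genotype change differed between the sexes, 1 as deposited, was 0 with a pseudocount of 0.1 or 0.5, without a filter on low values, with a mean of at least 0.5 RPKM, under median-of-ratios scaling, with the replicate block and without the variance trend, and ran from 0 to 2 when 1 library was left out. The mean filter leaves Slc41a3 out of the fit. Leaving out 1 library gave 47 to 63 called members in females, 25 to 46 in males, 15 to 32 between the sexes in WT and 30 to 50 in ARE-Del. With the replicate block the counts were 60, 39, 22 and 45. Deviations of same-numbered libraries correlated at -0.291 to 0.245 and those of differently numbered libraries at -0.247 to 0.23. No pairing by number was seen, but 3 libraries per group are too few to exclude it. The number of reads is not given, so the counting error of members near 0.5 RPKM is unknown.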
